A study of Mus musculus with 16 samples.

Results

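The unfolded protein response and the integrated stress response were followed through 31 genes, listed by name and looked up by Ensembl identifier among the 21959 genes counted in each of 16 mouse tumors. All 31 were found and all 31 passed the filter on low counts that left 13968 genes to test. They match 32 identifiers, since Ddit3 has a second one in GENCODE M39, which stood at 0 counts in every mouse. Every mouse was a male C57BL/6, 6 weeks old when MC38, a mouse colon carcinoma cell line, was injected into the lower hemispleen to seed tumors in the liver, and RNA came from the tumor tissue. The 4 groups of 4 mice received PBS (control), SB525334 at 20 mg/kg by mouth each day, KN046 at 10 mg/kg into the peritoneum in 2 doses a week, or both agents (combination). SB525334 is a small molecule that blocks ALK5, the type I receptor of TGF-β, and KN046 is an antibody against PD-L1 and CTLA-4. MC38 is a single transplanted line in young male hosts with an intact immune system, and the tissue also holds host cells, so fewer cells of a type and less RNA per cell cannot be told apart in these bulk samples.

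The endoplasmic reticulum (ER) folds secreted and membrane proteins. When unfolded protein builds up there, the sensors IRE1α (gene Ern1), PERK (Eif2ak3) and ATF6 start the unfolded protein response, which raises chaperones, disulfide isomerases and the machinery that sends misfolded protein to the proteasome. PERK shares its target, the initiation factor eIF2α, with other kinases that respond to amino acid shortage, heme shortage and double-stranded RNA. Phosphorylated eIF2α slows translation while ATF4 is made, and ATF4 with CHOP (Ddit3) drives genes of amino acid supply, redox balance and feedback, the integrated stress response.

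Factors of this response recognise short promoter elements, so the stretches before the start site of the members whose levels passed a test, in the groups described below, are shown with those elements in capitals. RefSeq (GRCm38.p6) gave a window of 250 bases before to 50 after the start for 28 of the 31 members, and none was given for Atf6, Hyou1 or Manf. The elements were searched on both strands as fixed letters: ERSE (CCAAT and CCACG with any 9 bases between them), ERSE-II (ATTGG and CCACG with any 1 base between them), UPRE (TGACGTGG), the amino acid response type element (TGATGCAA) and CRE (TGACGTCA). ERSE and ERSE-II share the letters CCACG, which UPRE holds on its other strand, and UPRE and CRE share TGACGT.
Hsp90b1, chr10:86705445-86705674, minus strand, 2 ERSE matches: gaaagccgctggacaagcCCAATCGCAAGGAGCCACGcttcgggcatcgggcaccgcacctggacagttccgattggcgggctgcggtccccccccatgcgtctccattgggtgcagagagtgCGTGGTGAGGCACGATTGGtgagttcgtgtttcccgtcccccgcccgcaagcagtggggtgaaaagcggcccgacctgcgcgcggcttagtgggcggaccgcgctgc
Dnajc3, chr14:118937782-118937931, plus strand, ERSE: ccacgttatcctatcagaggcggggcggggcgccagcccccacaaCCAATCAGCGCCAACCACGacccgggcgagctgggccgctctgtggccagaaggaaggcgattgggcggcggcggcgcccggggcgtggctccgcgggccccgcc
Herpud1, chr8:94386279-94386428, plus strand, first the amino acid response type element and then ERSE-II: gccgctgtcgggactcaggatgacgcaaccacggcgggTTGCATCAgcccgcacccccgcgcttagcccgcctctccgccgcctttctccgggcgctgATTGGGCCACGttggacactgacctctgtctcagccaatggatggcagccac
Syvn1, chr19:6046426-6046575, plus strand, ERSE: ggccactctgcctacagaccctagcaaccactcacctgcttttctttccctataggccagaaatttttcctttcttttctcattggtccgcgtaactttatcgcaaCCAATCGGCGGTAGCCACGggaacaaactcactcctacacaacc
Sdf2l1, chr16:17132384-17132533, minus strand, no match: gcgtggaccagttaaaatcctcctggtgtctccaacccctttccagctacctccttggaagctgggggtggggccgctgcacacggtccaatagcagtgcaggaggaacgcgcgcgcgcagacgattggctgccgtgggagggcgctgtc
All 5 run 5′ to 3′ and end at the base before the start site. Over the members, ERSE was found in 9 of 28 windows (32.1%), those of Calr, Canx, Creld2, Derl3, Dnajc3, Hsp90b1, Hspa5, Pdia6 and Syvn1, against 37 of 27025 genes (0.137%). ERSE-II was in 2 (Dnajb11 and Herpud1), against 0.0444% of all genes. The amino acid response type element was in Atf3, Chac1 and Herpud1 (10.7%, against 1.03%), CRE was in Ppp1r15a alone (3.57%, against 2.03%), and UPRE was in 0 members, against 0.714%. These are matches of letters and were not tested as binding sites. The members were listed as genes of this response, so the shares are a description and no enrichment is read from them.

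The total count per mouse was 18368994 to 23877131, and the 31 members took 0.621% to 0.792% of it. Levels below are in CPM, counts scaled to the library size after edgeR's TMM method so that libraries can be compared. Within the control group, mice 1 and 2 were close to each other, as were mice 3 and 4: gene by gene, the chi-square comparing the counts of 2 mice had a median of 1.30 and 0.959 in these pairs, while no other pair within a group was below 2.87. With 25.4% and 18.1% of genes past the 95% point, the mice of a pair still differed by more than sampling noise. That does not show that they are independent tumors. All 4 were kept as separate samples, as they are labelled, and fits with each pair merged are given below. The labels do not say how the tumors or libraries were batched, and the p-values measure the spread between these samples. Hepatocyte markers (15 genes, Alb the most abundant) summed to 14878 to 17426 CPM in the control group, 9374 to 18830 with KN046, 379 to 1894 with SB525334 and 13.5 to 21.5 with the combination, so the share of hepatocyte RNA differed between the groups. Krt8 and Krt18, epithelial keratins, were at 0 to 0.883 CPM in the combination mice, against 54.3 to 116 in the control mice.

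Compared per kilobase of merged exon, averaged over the 16 mice, the calcium-binding lectin chaperone Calr was the most abundant member at 412 CPM per kb. It was followed by its membrane-bound relative Canx (185), the central ER chaperone Hspa5 (184), the disulfide isomerase Pdia3 (182) and the transcription factor Atf4 (151). The sensors were among the lowest, with Ern1 at 4.38, Eif2ak3 at 5.81 and Atf6 at 6.24 CPM per kb, and only Derl3, a channel subunit of ER-associated degradation, was below 1 (0.529). The integrated stress response targets Sesn2 and Chac1 were at 5.07 and 7.30 CPM per kb.

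Few of these genes changed with treatment. KN046 alone gave the lowest Sdf2l1, a subunit of the ER chaperone complex around Hspa5: its 4 mice, at 17.2 to 25.3 CPM, lay below all 12 other mice, which ran from 31.2 to 61.2. Against the control mice alone, 6.65% of all genes had all KN046 mice lower. The share of genes apart from all 12 was not counted. KN046 mice also had the highest Atf6, 69.0 to 83.1 CPM against 43.3 to 63.5 in the other 12. For KN046 against control Atf6 did not pass (adjusted p = 0.0505, edgeR), and 4.94% of all genes had all KN046 mice higher. With SB525334 or the combination the ubiquitin ligase Syvn1 and its ER membrane partner Herpud1 fell, with log2 fold changes of -0.64 to -0.50, and Dnajc3 fell with the combination. None of these falls passed against control mice 1 and 2 alone (adjusted p = 0.0727 to 0.406, edgeR). The central regulators Xbp1, Atf4, Ddit3, Ern1 and Eif2ak3 passed the test in none of the 5 comparisons. In edgeR's quasi-likelihood test with Benjamini-Hochberg adjustment, 2 of 31 members were lower with SB525334 than in control, where 9.22% of all genes were, 1 was lower with KN046 (2.40% of all genes) and 3 were lower with the combination (9.74%). No member was higher in any of the 3, where 0.394%, 1.60% and 1.37% of all genes were. At an unadjusted p under 0.05 stood 5, 10 and 7 members (18.9%, 23.1% and 22.1% of all genes). At the thresholds of the study, an unadjusted p under 0.05 with a fold over 2, stood 1, 2 and 0 (9.90%, 4.08% and 10.2%). These were Derl3 with SB525334 and Sdf2l1 and Derl3 with KN046, all lower. The study applied these thresholds to DESeq2 results, and here they were applied to the edgeR fit. DESeq2 called 0, 2 and 0 higher (0.757%, 4.07% and 2.21% of all genes) and 3, 3 and 3 lower (8.93%, 4.58% and 9.66%). Those higher were Atf6 and Ppp1r15a. Those lower were Herpud1, Syvn1 and Derl3 (SB525334), Sdf2l1, Syvn1 and Derl3 (KN046) and Dnajc3, Herpud1 and Syvn1 (combination). No excess of called members is read from these counts. The members had a median log2 fold change of -0.18 for SB525334, -0.08 for KN046 and -0.20 for the combination, against 0.00, -0.03 and 0.01 over all genes tested. It was below 0 for 26, 19 and 24 members. Groups of 4 mice without overlap were found, against control, for 4 members lower with SB525334 (13.3% of all genes), 2 lower and 1 higher with KN046 (6.65% and 4.94%) and 2 lower and 1 higher with the combination (12.1% and 5.32%). The 3 comparisons share the control mice.

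**Figure D1:**
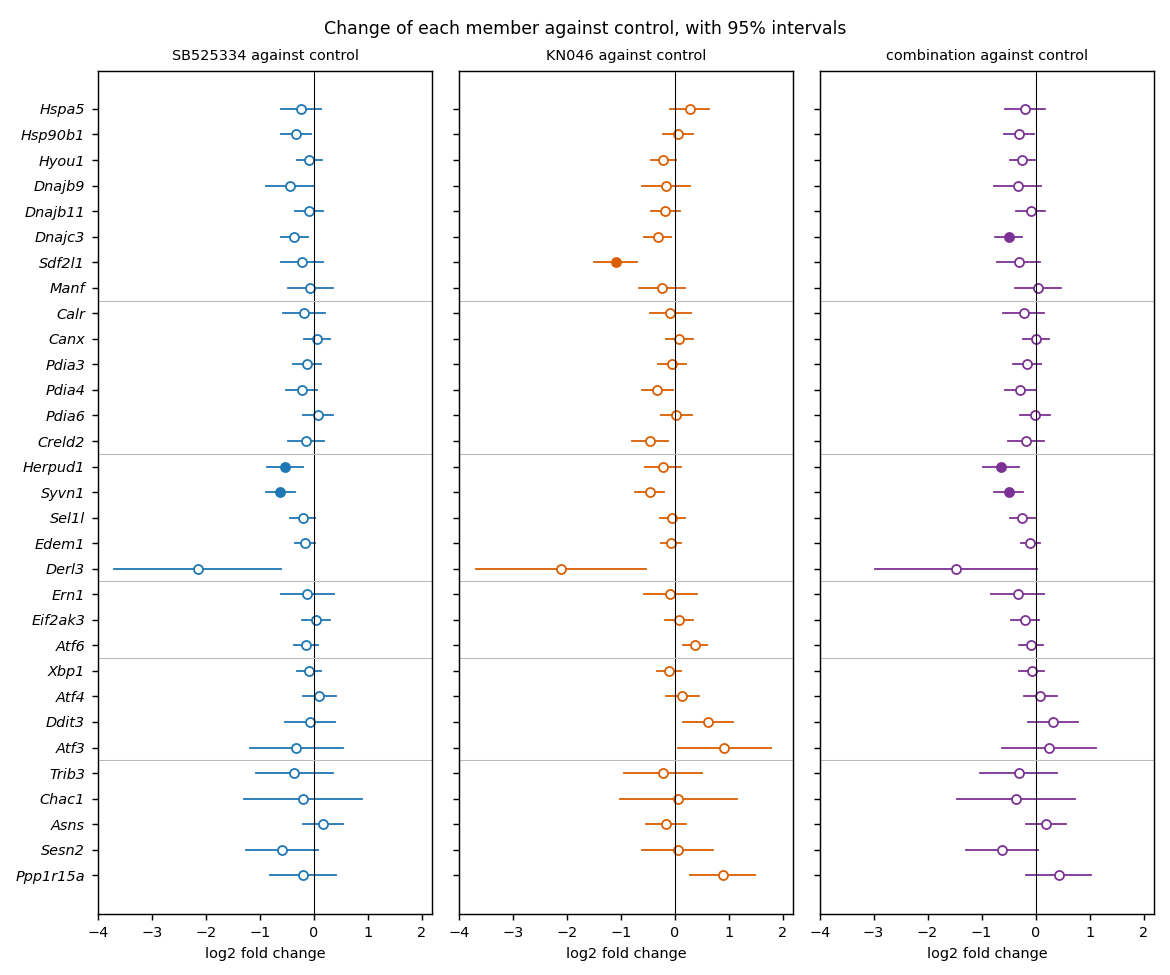
Log2 fold change of each of the 31 members against control (x axis) for SB525334, KN046 and the combination, with lines for the 95% interval derived from the edgeR test, rows grouped by role in the order of the text and filled points for an adjusted p under 0.05. Filled points are Herpud1 and Syvn1 (SB525334), Sdf2l1 (KN046) and Dnajc3, Herpud1 and Syvn1 (combination), while Derl3, at 4 to 99 counts a mouse, has the widest interval.

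The 2 pairs of control mice held these genes at different levels. In 25 of 31 members (80.6%) both of control mice 3 and 4 lay above both of mice 1 and 2, against 38.4% of all genes tested, and in 4 (12.9%), Ern1, Eif2ak3, Atf6 and Atf3, both lay below, against 38.2%. The mean of mice 3 and 4 over that of mice 1 and 2 had a median of 1.34 over the members and 0.999 over all genes tested. It passed 1.5 in 9 members (29.0%, against 5.43% of all genes): Dnajb9 (1.77), Sdf2l1 (1.77), Manf (1.84), Pdia4 (1.54), Creld2 (1.69), Derl3 (9.54), Trib3 (2.33), Chac1 (1.79) and Asns (1.66). It was 1.42 in Hspa5 and 1.48 in Atf4, and 0.572 in the sensor Ern1. These are values with no test, since the pairs were seen in the data. Summed epithelial markers (6 genes) were also higher in control mice 3 and 4 (249 and 237 CPM) than in mice 1 and 2 (151 and 154), proliferation markers (6 genes) were lower (1369 and 1348 against 1671 and 1678), and hepatocyte markers were 17165 and 17426 against 14878 and 15230. The part of these markers in the split was not tested.

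**Figure D2:**
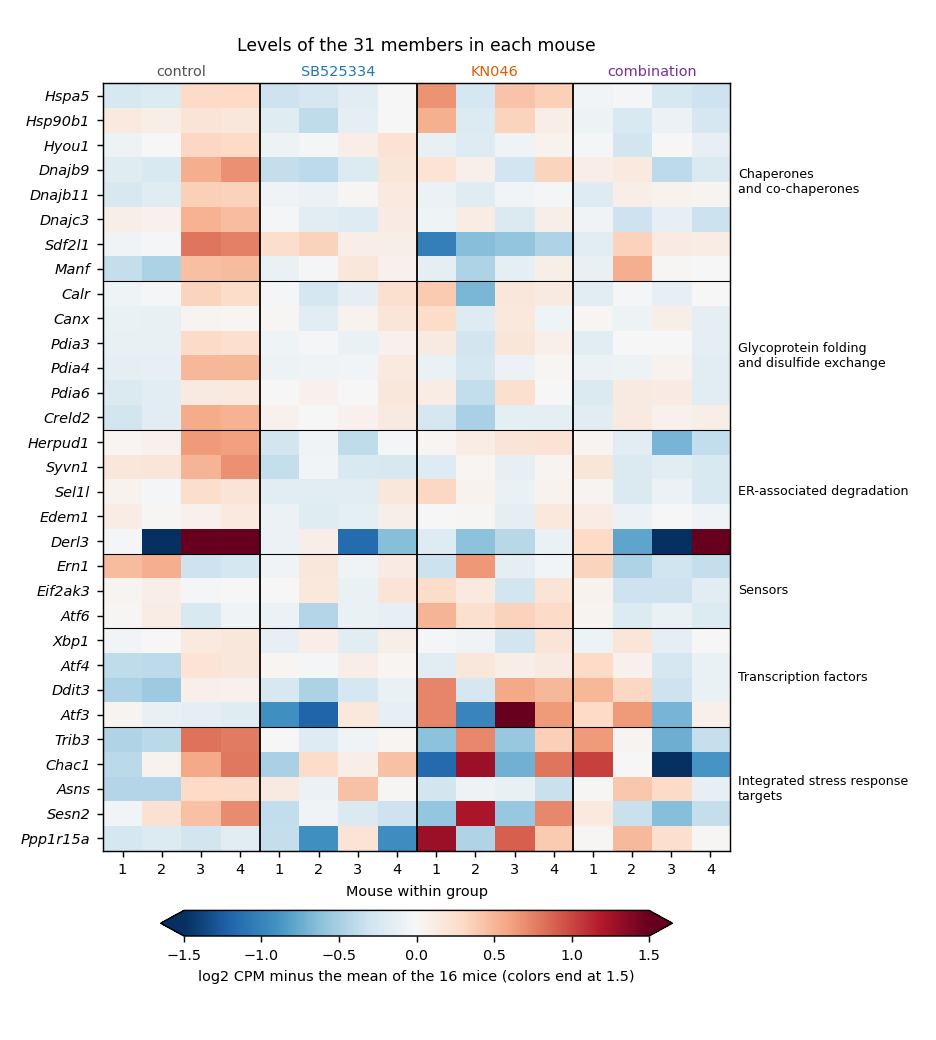
Level of the 31 members (rows, by role) in each of the 16 mice (columns, by group), as log2 CPM minus that gene's mean over the 16 mice. Most rows are redder in control mice 3 and 4 than in mice 1 and 2, Sdf2l1 is bluest in the KN046 mice, and Chac1, Sesn2 and Trib3 differ in color between KN046 mice 1 and 3 and mice 2 and 4.

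The calls against control turned on which pair was used. With control mice 3 and 4 alone, a comparison added after the pairs were seen, 8 members were lower with SB525334 (7.06% of all genes), 7 with KN046 (1.88%), where Atf6 was higher (1.56%), and 10 with the combination (7.95%). With control mice 1 and 2 alone, 0 members were lower in any of the 3 by edgeR, where 9.92%, 0.0420% and 11.7% of all genes were. At an unadjusted p under 0.05 in either direction stood 5, 6 and 7 members (27.7%, 17.7% and 33.1% of all genes). Only 1, 1 and 2 of them were lower, and the rest were higher. In that fit Asns was higher with SB525334 (1.41% of all genes were), by 0.59 on the log2 scale, and Asns and Manf were higher with the combination (6.18% of all genes), by 0.61 and 0.55. The median over the members moved from -0.34, -0.23 and -0.35 with mice 3 and 4 to 0.05, 0.15 and 0.08 with mice 1 and 2. With each pair merged into 1 sample, 1 member was lower with SB525334 (Syvn1; 7.18% of all genes), 0 with KN046 and 3 with the combination (8.12%). In that edgeR fit 0 of 14241 genes passed for KN046 against control (0.00%), with 9 members and 12.9% of all genes at an unadjusted p under 0.05. For the members that passed a test against control, the values against both pairs are therefore given below. Among the regulators that did not pass, Ern1 and Atf4 changed sign with the pair. Ern1 differed from control mice 3 and 4 by 0.34, 0.38 and 0.13 (SB525334, KN046, combination) and from mice 1 and 2 by -0.46, -0.42 and -0.67. Atf4 differed by -0.15, -0.12 and -0.17 from mice 3 and 4 and by 0.42, 0.45 and 0.40 from mice 1 and 2, and none of these values passed.

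**Figure D3:**
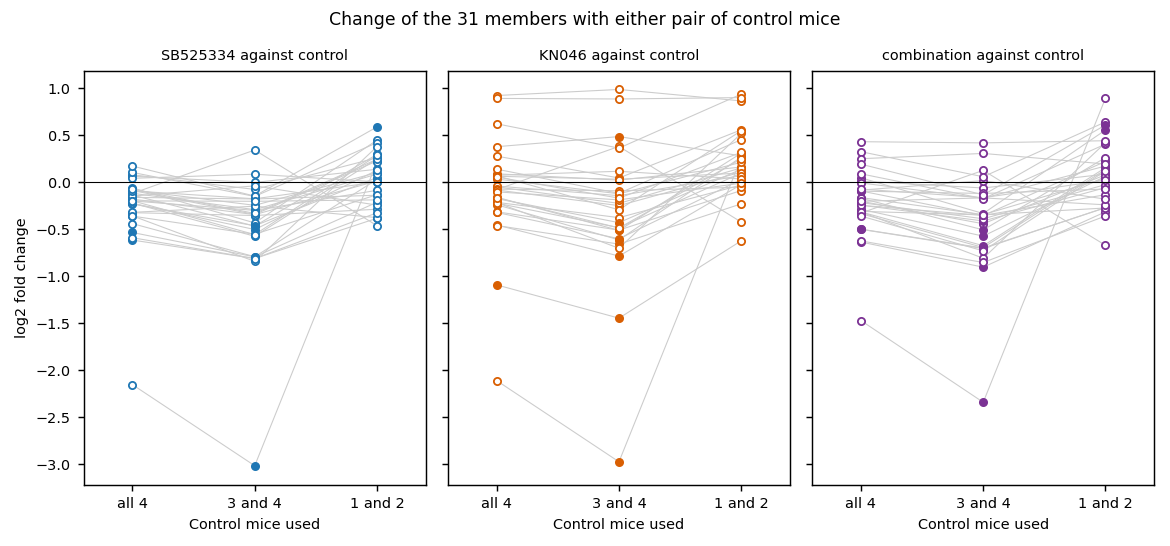
Log2 fold change of the 31 members against control (y axis) when all 4 control mice, only mice 3 and 4, or only mice 1 and 2 are used (x axis), with a gray line for each gene and filled points for an adjusted p under 0.05. Most points lie below 0 with control mice 3 and 4 and above 0 with mice 1 and 2, where 20, 23 and 19 of 31 are above 0 for SB525334, KN046 and the combination.

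Of the 8 chaperones and co-chaperones, 1 fell with KN046 and 1 with the combination, and none passed the test with SB525334. Sdf2l1 (gene on chromosome 16, GRCm39 16948002 to 16950252, minus strand) is itself induced by ER stress. Its level was 33.7, 34.4, 61.2 and 59.1 CPM in the control mice and 42.1, 44.5, 37.5 and 37.1 with SB525334. It was 17.2, 22.5, 23.2 and 25.3 CPM with KN046 and 31.2, 44.3, 38.0 and 37.6 with the combination. No KN046 mouse overlapped a mouse of any other group, while the SB525334 and combination mice lay between or just below the 2 control pairs. Against the control mice alone, 6.65% of all genes had all KN046 mice lower. Sdf2l1 fell with KN046 by 1.09 on the log2 scale (SE 0.19, adjusted p = 0.0136, edgeR). With control mice 3 and 4 alone its difference was -1.45 (adjusted p = 0.000602) and with mice 1 and 2 alone -0.62 (adjusted p = 0.0806). With the pairs merged the adjusted p was 0.0972, with the 8 mice of the 2 groups alone it was 0.0567, and without KN046 mouse 1 it was 0.0573. The combination was higher than KN046 alone by 0.78 (SE 0.19, adjusted p = 0.00692), a call that leaving out any single mouse did not end (adjusted p up to 0.0237).

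Dnajc3 (chromosome 14, GRCm39 119175317 to 119219115, plus strand) encodes p58IPK, an ER co-chaperone that also restrains PERK. It stood at 104, 103, 141 and 136 CPM in the control mice and 95.8, 87.9, 86.1 and 107 with SB525334. KN046 mice had 93.6, 106, 84.7 and 104 CPM and combination mice 94.7, 79.2, 89.8 and 78.5. All 4 combination mice lay below all 4 control mice, and the SB525334 and KN046 mice overlapped control mice 1 and 2. It fell with the combination by 0.50 on the log2 scale (SE 0.12, adjusted p = 0.00832), without any mouse still at an adjusted p of 0.0446 or less. Against control mice 3 and 4 alone the difference was -0.70 (adjusted p = 0.000647) and against mice 1 and 2 alone -0.27 (adjusted p = 0.138). Non-overlapping groups are frequent here, since 12.1% of all genes had all combination mice below all control mice.

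Hsp90b1 (GRP94, chromosome 10, GRCm39 86526073 to 86541446, minus strand) is the ER member of the HSP90 family and folds integrins and Toll-like receptors. It had the steadiest control level of all members, 476, 456, 490.5 and 484 CPM, with 377, 329, 388 and 429 with SB525334. In the KN046 mice it was 623, 371, 539 and 458 CPM and in the combination mice 406, 367, 403 and 361. SB525334 and combination mice all lay below the control mice, by -0.32 (SE 0.13, adjusted p = 0.165) and -0.31 (SE 0.13, adjusted p = 0.164), which did not pass. With either control pair alone these values were -0.35 and -0.35 (mice 3 and 4) and -0.29 and -0.27 (mice 1 and 2). It was lower with the combination than with KN046 (log2 difference -0.37, SE 0.13, adjusted p = 0.0466), a call kept in 2 of the 16 fits that left out 1 mouse. It was also lost with either control pair left out (adjusted p = 0.0523 and 0.0565), with the pairs merged (0.0686), with the loosest filter (0.0581) and with the 8 mice of the 2 groups alone (0.122).

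The other chaperones did not pass the edgeR test in any comparison. Hspa5 (BiP), which holds the sensors inactive until unfolded protein draws it away, was 1039 ± 210.4 CPM (SD, n = 4) in control, 885 ± 86.5 with SB525334, 1259 ± 314 in the KN046 mice and 903 ± 91.9 in the combination mice. KN046 mouse 1 was the highest at 1588 and KN046 mouse 2, at 833, lay with the lower control pair. For the combination against KN046 its difference was -0.48 (SE 0.17, adjusted p = 0.0538, edgeR), near the threshold, and DESeq2 called it lower. Its exons share 1313 bases with Rabepk on the other strand, and the strand setting of the counting is not stated, so a part of its count could belong to that gene. Hyou1, Dnajb9, Dnajb11 and Manf had differences against control between -0.44 and 0.05, with adjusted p-values of 0.199 or more.

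Among the 6 genes of glycoprotein folding and disulfide exchange, none passed the test in any of the 5 comparisons. Calr and Canx, which retain glycoproteins until they are folded, differed from control by -0.22 to 0.09 with adjusted p-values of 0.526 or more. The disulfide isomerases Pdia3, Pdia4 and Pdia6 differed by -0.32 to 0.08. Pdia4 was 218 ± 53.9 CPM (SD, n = 4) in control and 175 ± 13.8 with KN046, for a difference of -0.32 (SE 0.14, adjusted p = 0.171). Creld2, a disulfide isomerase-like protein that is induced by ER stress, was 79.9 ± 23.8 CPM in control and 58.3 ± 6.38 with KN046 (difference -0.45, SE 0.16, adjusted p = 0.103). With control mice 3 and 4 alone Pdia4 and Creld2 were lower with KN046, with differences of -0.60 and -0.79 (adjusted p = 0.0159 and 0.00586), and with mice 1 and 2 alone their differences were 0.03 and -0.02. Control mice 1 and 2, at 57.1 and 61.6 CPM of Creld2, lay among the KN046 mice (49.3 to 63.3), while control mice 3 and 4 were at 102 and 99.4.

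The 5 genes of ER-associated degradation, which returns misfolded proteins to the cytosol for destruction, held the calls that SB525334 and the combination had in common. Syvn1 (chromosome 19, GRCm39 6096606 to 6103747, plus strand) encodes HRD1, the ubiquitin ligase at the center of the pathway. Its level was 63.9, 64.6, 81.0 and 91.6 CPM in the control mice and 44.4, 55.1, 48.6 and 48.3 with SB525334. It was 49.9, 58.2, 52.3 and 58.3 with KN046 and 64.8, 48.9, 50.5 and 48.5 with the combination. All SB525334 and KN046 mice lay below all control mice, as did combination mice 2 to 4, while combination mouse 1 lay just above control mice 1 and 2. Syvn1 fell with SB525334 by 0.62 on the log2 scale (SE 0.13, adjusted p = 0.00254) and with the combination by 0.50 (SE 0.13, adjusted p = 0.0121), and for KN046 the difference was -0.46 (adjusted p = 0.0509). DESeq2 called Syvn1 lower in each of these comparisons. Without any single mouse the SB525334 call held (adjusted p up to 0.0146), while that of the combination was lost without control mouse 4, combination mouse 2 or combination mouse 4 (adjusted p up to 0.0574). With control mice 3 and 4 alone the SB525334 and combination values were -0.81 and -0.71 (adjusted p = 0.000464 and 0.00122), while with mice 1 and 2 alone the SB525334 value was -0.38 (adjusted p = 0.0727) and that of the combination was -0.27 (adjusted p = 0.165).

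Herpud1 (chromosome 8, GRCm39 95113022 to 95123141, plus strand) encodes HERP, which organises the Syvn1 complex. It was at 165, 169, 251 and 248 CPM in the control mice and 134, 156, 125 and 159 with SB525334. The KN046 mice had 164, 175, 185 and 188 CPM and the combination mice 166, 144, 100.1 and 125. All SB525334 mice lay below the lowest control mouse, by little (159 against 165 at the nearest), and combination mouse 1 lay among control mice 1 and 2. Herpud1 fell with SB525334 by 0.54 on the log2 scale (SE 0.16, adjusted p = 0.0404) and with the combination by 0.64 (SE 0.16, adjusted p = 0.0112). The SB525334 call was kept in 8 of the 16 fits that left out 1 mouse, with an adjusted p of 0.142 without control mouse 3, and that of the combination in 15, with 0.0512 without combination mouse 3. With control mice 3 and 4 alone the values were -0.79 (adjusted p = 0.00275) and -0.90 (adjusted p = 0.000622), and with mice 1 and 2 alone -0.21 (adjusted p = 0.406) and -0.32 (adjusted p = 0.183). The SB525334 call was also lost under library totals (adjusted p = 0.0554), with a replicate block (0.0631) and with the control pairs merged (0.122), and that of the combination with the 8 mice of the 2 groups alone (0.053).

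The other genes of this group did not pass. Sel1l, the adaptor that holds Syvn1 in place, differed from control by -0.25 to -0.04, and Edem1, a lectin that marks glycoproteins for removal, by -0.16 to -0.07. Derl3 was 0.656, 0.237, 3.35 and 5.17 CPM in the control mice, below 1 CPM in every SB525334 and KN046 mouse, and 0.822, 0.386, 0.218 and 1.89 in the combination mice. Its fitted differences of -2.15, -2.11 and -1.47 rest on control mice 3 and 4, which hold most of the 185 control counts, and had adjusted p-values of 0.0842, 0.108 and 0.236. DESeq2 called Derl3 lower with SB525334 and with KN046.

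**Figure D4:**
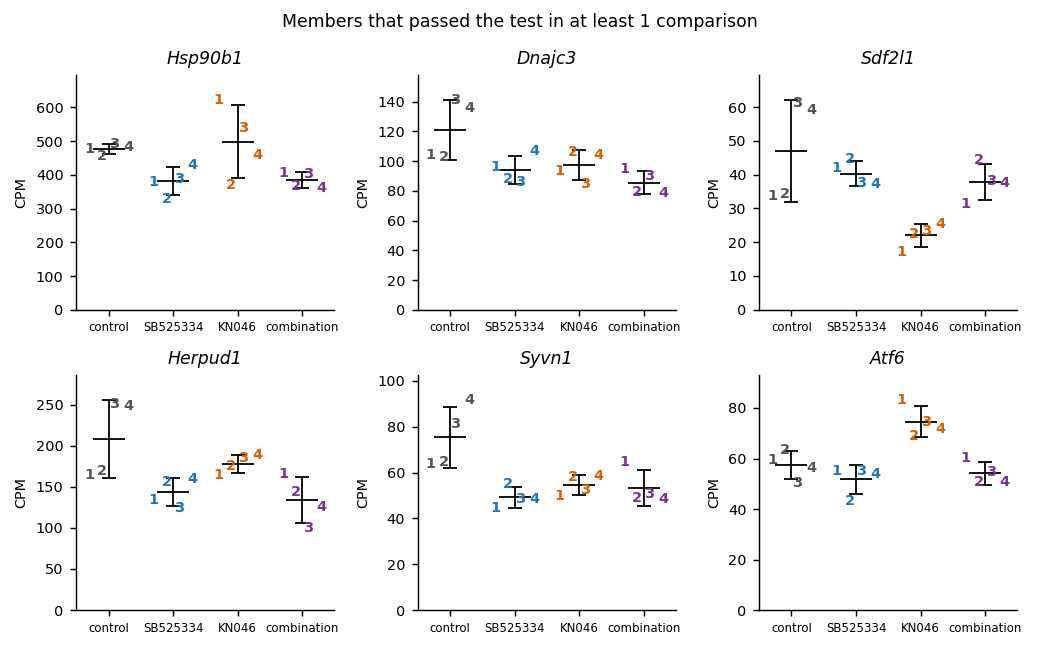
CPM of the 6 members that passed the test in at least 1 comparison (y axis from 0), with the mouse numbers as points and bars for the mean and SD of each group of 4. Sdf2l1 is lowest and Atf6 highest in the KN046 mice, with no overlap with the other groups, and control mice 3 and 4 stand above mice 1 and 2 for Dnajc3, Sdf2l1, Herpud1 and Syvn1.

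Of the 3 sensors, Atf6 (chromosome 1, GRCm39 170532026 to 170696208, minus strand) passed the test once. ATF6 travels to the Golgi under ER stress, where it is cut to release a transcription factor. Its RNA was 59.4, 63.5, 50.1 and 56.4 CPM in the control mice and 55.1, 43.3, 54.9 and 53.8 with SB525334. With KN046 it was 83.1, 69.0, 74.3 and 71.6 CPM and with the combination 60.2, 50.9, 54.6 and 50.8. The KN046 mice were above every mouse of the other groups, which overlapped among themselves. Atf6 was lower with the combination than with KN046, a difference of -0.46 (SE 0.10, adjusted p = 0.00406), and leaving out any single mouse did not end the call (adjusted p up to 0.0225). For KN046 against control the difference was 0.38 (SE 0.10, adjusted p = 0.0505), just short of the threshold, with 0.48 (adjusted p = 0.0498) against control mice 3 and 4 alone and 0.28 (adjusted p = 0.259) against mice 1 and 2 alone. Groups without overlap in that direction were found for 4.94% of all genes. DESeq2 called Atf6 higher with KN046 than in control.

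Ern1, whose enzyme splices the Xbp1 message, was 48.6, 51.0, 28.0 and 28.9 CPM in the control mice and 33.5, 39, 33.7 and 37.9 with SB525334. It was 27.9, 54.6, 31.6 and 33.9 with KN046 and 44.0, 25.2, 28.3 and 27.2 with the combination. Here the order of the control pairs was turned round, mice 1 and 2 being the higher, and KN046 mouse 2 and combination mouse 1 stood above the rest of their groups. The differences from control were -0.12 (95% interval -0.61 to 0.37), -0.08 (-0.57 to 0.41) and -0.33 (-0.82 to 0.16), none of which passed.

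Eif2ak3 (PERK), the sensor that phosphorylates eIF2α, was 36.0, 37.5, 34.3 and 35.1 CPM in the control mice and 34.9, 39.1, 32.7 and 40.3 with SB525334. It was 42.5, 38.7, 28.9 and 40.3 with KN046 and 36.4, 28.2, 28.3 and 31.2 with the combination. The groups overlapped throughout. The differences from control were 0.04 (95% interval -0.22 to 0.30), 0.07 (-0.19 to 0.33) and -0.20 (-0.46 to 0.06). For the combination against KN046 the difference was -0.28 (SE 0.12, adjusted p = 0.107).

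None of the 4 transcription factors passed the test in any comparison with all 16 mice. Xbp1, which is turned into an active factor by splicing, was 148, 152, 168 and 172 CPM in the control mice and 139.9, 163, 136 and 161 with SB525334. It was 149.7, 147, 126 and 173 with KN046 and 144, 173, 139 and 153 with the combination. All groups overlapped, and the differences of -0.09 (95% interval -0.32 to 0.13), -0.10 (-0.33 to 0.12) and -0.07 (-0.30 to 0.15) did not pass. Gene counts do not separate the spliced from the unspliced message, nor do they show the phosphorylation or cleavage that switches the sensors on.

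Atf4, the factor made when eIF2α is phosphorylated, is controlled largely at translation. Its RNA was 273, 271, 408 and 399 CPM in the control mice and 363, 347, 379 and 362 with SB525334. It was 318, 399, 379 and 390.2 with KN046 and 436, 369.6, 298 and 332 with the combination. Every treated mouse lay above control mice 1 and 2, and all but KN046 mouse 2 and combination mouse 1 lay below mice 3 and 4. The differences of 0.10, 0.14 and 0.09 (adjusted p = 0.794, 0.601 and 0.766) did not pass.

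Ddit3 (CHOP), a factor tied to cell death under lasting stress, was 11.8, 11.1, 17.1 and 17.0 CPM in the control mice and 13.8, 11.7, 13.5 and 15.2 with SB525334. It was 27.1, 13.6, 24.0 and 23.0 with KN046 and 23.0, 20.2, 13.1 and 15.1 with the combination. KN046 mice 1, 3 and 4 were above all control mice and KN046 mouse 2 lay among them. The difference of KN046 from control was 0.62 (SE 0.22, adjusted p = 0.105), being 0.36 against control mice 3 and 4 and 0.94 against mice 1 and 2. Atf3, an early stress factor, was 41.4, 12.5, 84.6 and 38.7 CPM in the KN046 mice and 21.9 to 25.6 in the control mice (difference 0.92, SE 0.41, adjusted p = 0.191), with mouse 3 the highest and mouse 2 below every control mouse.

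The spread of the 5 integrated stress response targets within a group ran from a coefficient of variation of 3.65% (Ppp1r15a in control) to 78.5% (Chac1 with the combination). None passed the edgeR test in any comparison with all 16 mice. Chac1, which degrades glutathione, was 4.69, 25.6, 6.37 and 18.3 CPM in the 4 KN046 mice and 21.4, 10.4, 3.33 and 5.70 in the combination mice, against 7.96, 10.9, 15.6 and 18.1 in control. Trib3, a pseudokinase that damps ATF4 and CHOP, was 25.8, 64.8, 26.7 and 50.4 with KN046, and Sesn2, a leucine sensor that restrains mTORC1, was 11, 38.3, 11.1 and 27.2, with 16, 19.3, 22.3 and 27.0 in control and 12.8 to 15.8 with SB525334 (difference -0.59, adjusted p = 0.344). For all 3, KN046 mice 2 and 4 were high and mice 1 and 3 low. Ppp1r15a (GADD34), which brings the phosphatase that reverses eIF2α phosphorylation, had the opposite order, 95.5, 28.5, 72.6 and 51.2 CPM in KN046 mice, as had Hspa5, Ddit3 and Atf3 in that mouse 2 was the lowest. Ppp1r15a differed from control by 0.89 with KN046 (SE 0.29, adjusted p = 0.0812) and by 0.43 with the combination (SE 0.29, adjusted p = 0.409), where all 4 mice lay above all 4 control mice, as in 5.32% of all genes. DESeq2 called Ppp1r15a higher with KN046. Asns, the asparagine synthetase, was 99.7, 99.6, 166 and 165 CPM in the control mice and 149 ± 24.6 (SD, n = 4) with SB525334, 118 ± 10.1 in the KN046 mice and 152 ± 25.7 in the combination mice. Without KN046 mouse 2 the calls of Sdf2l1, and that of Atf6 for the combination against KN046, held and others were added. This fit, 1 of the 16 that left out 1 mouse, is singled out after the values were seen. Mouse 2 was the lowest KN046 mouse for Atf6, Hspa5, Hsp90b1, Ddit3, Atf3 and Ppp1r15a. Leaving it out therefore raises their KN046 mean before any test is made. In that fit 4 members were higher with KN046 than in control (6.56% of all genes were), namely Atf6 by 0.42 on the log2 scale, Ddit3 by 0.80, Atf3 by 1.24 and Ppp1r15a by 1.14 (adjusted p = 0.0208, 0.0161, 0.0225 and 0.00778, edgeR), and Syvn1 joined Sdf2l1 as lower (8.34% of all genes were). In the same fit Hspa5, Hsp90b1, Atf6, Atf3 and Ppp1r15a were lower with the combination than with KN046 (16.1% of all genes were), with adjusted p-values of 0.037 or less. Ddit3, Atf3 and Ppp1r15a were called for KN046 against control in no other fit that left out 1 mouse. The coefficient of variation was 72.5% for Chac1 and 60.9% for Sesn2 within the KN046 group, against a median of 15.4% over the members and 19.2% over all genes.

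**Figure D5:**
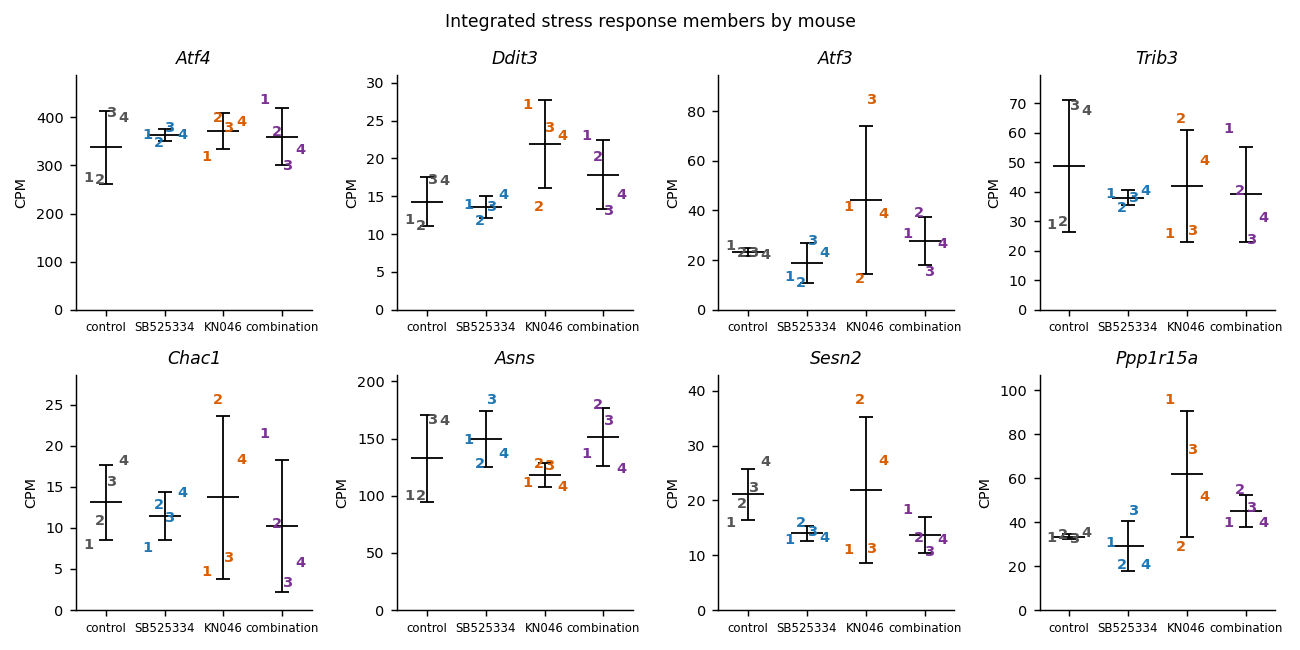
CPM of Atf4, Ddit3, Atf3 and the 5 integrated stress response targets (y axis from 0), with the mouse numbers as points and bars for the mean and SD of each group of 4. KN046 mice 2 and 4 stand above mice 1 and 3 for Trib3, Chac1 and Sesn2 but not for Atf3 or Ppp1r15a, and the treated groups overlap control except for Sesn2 with SB525334 and Ppp1r15a with the combination.

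The combination was also compared with KN046 alone. No control mouse stands on either side, although the control mice enter the filter, the scaling and the estimate of the spread. There 1 member was higher, Sdf2l1, and 2 were lower, Hsp90b1 and Atf6, where 9.89% of all genes were higher and 14.5% lower. DESeq2 also called Sdf2l1 higher (10.3% of all genes were), and it called 4 members lower (14.9%), namely Hspa5, Hsp90b1, Herpud1 and Atf6. With either control pair left out of the fit, 2 members were higher (Sdf2l1 and Creld2) and 3 lower (Hspa5, Herpud1 and Atf6). All genes stood at 10.4% higher and 15.4% lower without control mice 1 and 2, and at 10.8% and 15% without mice 3 and 4. Sdf2l1 was the only member with all combination mice above all KN046 mice, as in 7.90% of all genes, and Atf6 the only one with all below, as in 12.4%. The median of the members was -0.11, against 0.00 over all genes, with 23 of 31 below 0. The interaction, which asks whether the effect of SB525334 differed with and without KN046, passed for Sdf2l1 alone (1 higher, where 1.73% of all genes were, and 0 lower, where 2.55% were; 4 members and 16.6% of all genes had an unadjusted p under 0.05, and DESeq2 also called 0 lower). Its value of 1.0 on the log2 scale (SE 0.26, adjusted p = 0.0393) set a difference of 0.78 in the presence of KN046 beside one of -0.22 in its absence. It was 1.35 (adjusted p = 0.0018) with control mice 3 and 4 alone, when 5 members were higher (1.29% of all genes), and 0.53 (adjusted p = 0.234) with mice 1 and 2 alone. The adjusted p was 0.0667 with the control pairs merged, the value lay just below the fold of 2 in the thresholds of the study, and it passed in 5 of the 16 fits that left out 1 mouse. For Syvn1 the interaction was 0.57 (SE 0.18, adjusted p = 0.0892).

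Beside the comparison of the combination with KN046, all 15 hepatocyte markers were lower, 5 of 6 epithelial markers were lower (Krt8, Krt18, Krt7, Epcam and Cdh1), all 5 T cell markers tested were higher and 4 of 8 macrophage markers were higher. With SB525334 against control the hepatocyte markers were lower in 15 of 15 and the neutrophil markers in 5 of 6, and the summed neutrophil level was 97.8 to 115 CPM in control and 7.37 to 17.5 with SB525334. The epithelial Krt8 and Krt18 were lower there too. With the combination against control 15 of 15 hepatocyte and 5 of 6 epithelial markers were lower. Of 8 fibroblast genes 2 were lower (Col1a2 and Postn), while 5 had a fold change above 0. Of 6 proliferation genes 1 was lower (Mki67), while 3 were above 0. Of 6 neutrophil genes 1 was lower (Csf3r), and the summed neutrophil level was 4.59 to 145 CPM in the combination mice. With KN046 against control 0 of 15 hepatocyte and 4 of 5 T cell markers were lower, and the summed neutrophil level was 15.4 to 23.7 CPM, where 0 of 6 markers passed. The part of these markers in the results for the members was not tested. Plasma cells and pancreatic acinar cells carry a large ER. The 6 plasma cell markers summed to 121 to 205 CPM, most of it Sdc1, which was at 113 to 168 in every mouse and which epithelial cells also express. Of the more restricted markers, Mzb1 was at 0 to 0.470 CPM and Tnfrsf17 at 0 to 0.142, while Jchain, which joins antibody units, ran from 0.480 to 67.2 CPM (combination mouse 4) and was higher with the combination than with KN046 and in the interaction. Of the 9 acinar markers Cela1 was at 10.1 to 24.2 CPM and the other 8 at 0 to 0.568, and Cela2a was lower than in control with SB525334 and the combination.

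A wider list of 69 genes of the 2 responses, none of them a member, gave 0 higher and 5 lower genes with SB525334 (0.394% and 9.22% of all genes). It gave 1 higher and 3 lower with KN046 (1.60% and 2.40%), and 0 higher and 4 lower with the combination (1.37% and 9.74%). The medians were -0.06, -0.01 and -0.01. No excess is read from these counts. With SB525334 the largest falls were in Fgf21, a hormone of the stressed liver, from 2.7 ± 1.5 to 0.298 ± 0.120 CPM (SD, n = 4), Creb3l3, an ATF6 relative of hepatocytes, by 2.95 on the log2 scale, and Cth, the cystathionine lyase of cysteine synthesis, by 2.47 (adjusted p = 0.0131, 3.4e-06 and 5.24e-05). With the combination Creb3l3 fell by 6.15 and Cth by 3.06 (adjusted p = 4.35e-09 and 4.54e-06), and Fgf21 had 1 count over the 4 mice (adjusted p = 0.000341). These 3 genes fell where the hepatocyte markers fell, and the part of hepatocyte RNA in this was not tested. Creb3l1, an ATF6 relative linked to collagen secretion, was lower with both, with log2 fold changes of -1.12 and -1.80 (adjusted p = 0.00808 and 9.71e-05). Its level went from 9.62 to 10.8 CPM in the control mice to 3.70 to 5.20 with SB525334 and 1.27 to 4.15 with the combination, with no overlap and no split between the control pairs. It is named outside the rule for this list, after its values were seen. With KN046, Erlec1, a lectin of ER-associated degradation, rose by 0.63 (SE 0.13, adjusted p = 0.0239), and Atf5, Dnajb2 and the tryptophan tRNA synthetase Wars1 were lower, with log2 fold changes of -0.77, -0.70 and -0.51 and adjusted p-values of 0.0442, 0.0279 and 0.0219. All 4 calls with KN046 were lost when the control pairs were merged, as were those of all genes. In that fit 0 of 14241 genes passed for KN046 against control, so the loss does not single out these 4.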

How the data were processed

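RNA of 16 tumors was sequenced as bulk RNA-seq. Per the submitters' processing notes, the authors used Cutadapt 2.7, HISAT2 2.2.1, GRCm39, HTSeq 2.0.4 and DESeq2 1.38.3. The deposited values used here are raw counts per gene, and the strand setting of the counting is not given in the sources used here. Normalised columns were deposited as well and were not used. Groups were taken from the labels. Counts were fitted in R 4.3.3 with edgeR 4.0.16: filterByExpr with a minimum count of 10, TMM scaling and 1 quasi-likelihood model of all 4 groups, with Benjamini-Hochberg adjustment over all 13968 genes and a threshold of 0.05. In data simulated for the combination against control, with 200 of 13813 genes changed 2-fold, 84% were recovered and 8 unchanged genes were called. The simulation gave every gene the same dispersion, changed no gene of low count and held no control pairs. It therefore does not give the power for the smaller changes of most members or the rate of false calls in these data. Alternatives were DESeq2 1.42.0, other filters and scalings, a replicate block, merged control pairs, the 8 mice of a comparison alone, the thresholds of the study applied to the edgeR fit, and each mouse left out. Control pairs left out were added after the data were seen.

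The 31 members and all lists were chosen with earlier results of these data known. Values per mouse are given for each member with a call and for Ern1, Eif2ak3, Atf6, Xbp1, Atf4 and Ddit3. From the wider list, the 3 largest rises and falls with at least 1 CPM in the higher group are named. Counts of Hspa5, Pdia3, Pdia6, Syvn1, Ddit3, Manf and Ppp1r15a are uncertain where their exons overlap those of other genes. Intervals and p-values cover the spread between samples, each taken as a separate mouse, which the closeness within the control pairs leaves uncertain. The number of reads limits Derl3 most.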

Additional observations from a re-analysis of the deposited data

Results flagged for a closer look

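In 44 groups of 4 mice, the 4 groups of each of 11 members, a single mouse stood apart from the other mice of its group 3 times by Dixon's test, where about 1 in 20 groups, or 2.2 of 44, would by chance. Combination mouse 1 was the highest of its group for Syvn1, at 64.8 CPM against 48.5 to 50.5 in the others, and for Ern1, at 44.0 CPM against 25.2 to 28.3. SB525334 mouse 2 was the lowest of its group for Atf6, at 43.3 CPM against 53.8 to 55.1.

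The effect of SB525334 on Sdf2l1 differed with and without KN046, the interaction being 1.0 in log2 units (adjusted p = 0.0393, edgeR). It was lost with control mice 1 and 2 alone, with the control pairs merged (adjusted p = 0.0667) and in 11 of the 16 fits that left out 1 mouse.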

How the results depend on the processing

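With all 16 mice, the members higher and lower were 0 and 2 with SB525334, 0 and 1 with KN046, 0 and 3 with the combination, 1 and 2 for the combination against KN046, and 1 and 0 for the interaction. Counts this small move by over 1.5 times with 1 gene, and the causes of the moves were not tested. Shares of all genes called in the same direction and setting are in parentheses. With SB525334, 1 member was lower under library totals (8.48%), with pairs merged (7.18%) or at the thresholds of the study, an unadjusted p under 0.05 and a fold over 2 (9.77%), 8 with control mice 1 and 2 left out (7.06%) and 0 with mice 3 and 4 left out (9.92%), when 1 was higher (1.41%). With KN046, 1 was higher under RLE scaling (1.78%) or with control mice 1 and 2 left out (1.56%) and 2 in DESeq2 (4.07%). With KN046, 2 were lower with a filter at a mean of 1 CPM (2.46%) or at the thresholds of the study (3.14%), 3 in DESeq2 (4.58%), 7 with control mice 1 and 2 left out (1.88%), and 0 with pairs merged (0.00%), with mice 3 and 4 left out (0.0420%) or with the 8 mice alone (0.460%). With the combination, 2 were higher with control mice 3 and 4 left out (6.18%) and 1 with the 8 mice alone (1.39%), and 10 were lower with mice 1 and 2 left out (7.95%), 0 with mice 3 and 4 left out (11.7%) and 0 at the thresholds of the study (9.68%). For the combination against KN046, 2 were higher with either control pair left out (10.4% and 10.8%), 0 were higher and 0 lower at the thresholds of the study (2.44% and 9.60%), 1 was lower with the loosest filter (11.1%), with pairs merged (13.2%) or with the 8 mice alone (10.0%), and 4 in DESeq2 (14.9%). For the interaction, 0 were higher with pairs merged (0.653%) or control mice 3 and 4 left out (1.34%) and 5 with mice 1 and 2 left out (1.29%). At the thresholds of the study the 1 member higher in the interaction was Derl3, in place of Sdf2l1. On the wider list, merging the pairs left 3 lower genes for SB525334 (7.18%), and for KN046 the higher and the lower genes were both 0 (0.00% of all genes each).

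Leaving out each mouse in turn gave 1 to 4 members lower with SB525334, 0 to 4 higher and 0 to 2 lower with KN046, 1 to 5 lower for the combination against KN046 and 0 to 1 higher for the interaction. On the wider list it gave 0 to 5 genes higher and 0 to 7 lower with KN046, both highest without KN046 mouse 2 (6.56% and 8.34% of all genes in that fit). It gave 2 to 6 higher for the combination against KN046, where 9.89% of all genes were with all 16 mice. The 2 calls of SB525334 became 4 without control mouse 2 and 3 without control mouse 1.

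Mice with the same number deviated from their group means with correlations of -0.483 to 0.527 over 24 pairs, so the numbers were not taken to pair the mice. With the replicate number as a block, 1 member was lower with SB525334 (Syvn1) in place of 2, and the other counts of members were 0 and 1, 0 and 3, 1 and 2, and 1 and 0, as without it. No named member whose call passed with all 16 mice changed direction under any of these alternatives. Scaling moved the median of all genes by at most 0.0377 on the log2 scale.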
